A study of Mus musculus with 66 samples.

Results

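Genes of the postsynaptic scaffold were followed through the lists of chromatin regions at which histone H3.3, or newly made histone, differed after depolarisation of cultured neurons or after enriched housing of mice. The 10 genes were Dlg2, Dlgap1, Dlgap2, Magi1, Magi2, Shank2, Shank3, Homer1, Homer2 and Prickle1. A region counted as theirs where the authors' deposited tables name the gene, by symbol or by gene ID. Of 57678 regions in 7 tables, 136 belonged to these genes. Every one of the 10 genes had at least 1, but they were chosen with earlier results of these data known, so that count is no result. H3.3 immunoprecipitation gave 20 of the 136 regions and CATCH-IT gave 116.

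The postsynaptic density is the protein sheet under the membrane of excitatory synapses, and its scaffolds hold glutamate receptors in place and tie them to signalling enzymes and actin. Dlg and Magi proteins bind receptors and adhesion molecules at the membrane, Dlgap proteins link the Dlg layer to Shank proteins, and Shank proteins join Homer proteins, which hold metabotropic glutamate receptors. Many of these genes are very long, and neuronal activity is known to change the make-up of the density. H3.3 is the histone H3 variant put into chromatin without DNA being copied, so that in neurons, which no longer divide, it is the main source of new histone H3.

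Cortical neurons were taken from C57bl/6 mouse embryos at day E16.5 and kept for 8 days in vitro. They received isotonic KCl, which depolarises the membrane, or no stimulation. H3.3 was immunoprecipitated from sonicated, crosslinked chromatin after 30 min, 2 hr and 5 hr of KCl, and H3.1/2 after 5 hr. CATCH-IT, in which newly made histones carry a metabolic tag and are pulled down on streptavidin beads, was run after 5 hr of KCl. For the animals, hippocampal nuclei of mice about 7 weeks old were sorted by the neuronal protein NeuN into a positive and a negative fraction, after 4 weeks of environmental enrichment or of normal housing. Each culture and NeuN-negative group had 3 values in its table, and each NeuN-positive group had 2. The labels describe biological triplicates in culture and duplicates in vivo, although the NeuN-negative table has 3 values per group, and each table had its own control libraries. The NeuN-negative fraction holds many cell types, and the sort could not be checked against marker genes, because the tables list only regions that differed. A lower signal from fewer cells of a type and from less H3.3 per cell cannot be told apart in such bulk chromatin.

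All values are the authors' normalised read counts in a region, and they rest on few reads. For H3.3 in culture 1 read was worth 0.758 to 1.36 units in the 18 libraries, in NeuN-positive libraries 0.785 to 1.51 and in NeuN-negative libraries 0.542 to 2.64. In CATCH-IT libraries 1 read was worth 0.315 to 2.72 units, a wider range. The tables list only regions with a change of at least about 3-fold, with a smallest absolute log2 fold change of 1.59 or 1.60, so a gene without a region was not shown to be unchanged. By the library titles, all KCl libraries of the 30 min, 2 hr and CATCH-IT tables shared 1 sequencing lane and all their controls another, and the same was true of enriched and normal libraries of NeuN-negative nuclei. Lane and treatment cannot be told apart in those tables. In the 5 hr H3.3 table each lane held 1 KCl and 1 control library, and in NeuN-positive nuclei every library had its own lane.

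The DNA of every H3.3 region named for the 3 genes with most of them is shown first, because Dlg2, Magi2 and Dlgap1 held regions in several tables and these were different stretches of DNA. The sequences are the plus strand of mm9. Capitals mark TGANTCA, a loose form of the AP-1 motif in which N is any base, searched on both strands. AP-1 sites are bound by Fos and Jun, the products of immediate-early genes. All 4 regions of Dlg2 were listed as lost.
Dlg2, KCl 2 hr, lost, chr7:98955161-98955440: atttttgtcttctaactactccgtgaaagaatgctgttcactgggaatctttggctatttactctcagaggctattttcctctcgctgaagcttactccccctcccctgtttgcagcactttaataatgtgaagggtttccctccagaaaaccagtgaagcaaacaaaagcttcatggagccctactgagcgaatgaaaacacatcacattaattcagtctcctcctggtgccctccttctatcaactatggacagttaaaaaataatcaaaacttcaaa
Dlg2, KCl 30 min, lost, chr7:99103361-99103560: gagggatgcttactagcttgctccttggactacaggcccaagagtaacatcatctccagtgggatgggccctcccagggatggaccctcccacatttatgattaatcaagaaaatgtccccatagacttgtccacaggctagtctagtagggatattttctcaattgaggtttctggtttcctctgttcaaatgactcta
Dlg2, KCl 5 hr, lost, chr7:99334881-99335080: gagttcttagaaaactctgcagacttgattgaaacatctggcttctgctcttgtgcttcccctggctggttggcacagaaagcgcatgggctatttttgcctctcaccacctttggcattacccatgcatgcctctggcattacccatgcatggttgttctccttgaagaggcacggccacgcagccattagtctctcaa
Dlg2, enriched NeuN-negative, lost, chr7:99418461-99418700: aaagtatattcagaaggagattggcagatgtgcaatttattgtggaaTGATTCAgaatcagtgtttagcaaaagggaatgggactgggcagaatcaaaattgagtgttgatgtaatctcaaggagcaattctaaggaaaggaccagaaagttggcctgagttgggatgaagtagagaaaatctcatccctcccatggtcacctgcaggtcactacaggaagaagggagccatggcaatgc

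Magi2 had 3 regions listed as gained, all upstream of its 1 lost region.
Magi2, KCl 30 min, gained, chr5:19177461-19177660: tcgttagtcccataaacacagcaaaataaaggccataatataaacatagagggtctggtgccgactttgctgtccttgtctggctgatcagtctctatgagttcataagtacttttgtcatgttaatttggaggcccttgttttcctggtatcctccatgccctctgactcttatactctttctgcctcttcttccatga
Magi2, enriched NeuN-negative, gained, chr5:19203501-19203700: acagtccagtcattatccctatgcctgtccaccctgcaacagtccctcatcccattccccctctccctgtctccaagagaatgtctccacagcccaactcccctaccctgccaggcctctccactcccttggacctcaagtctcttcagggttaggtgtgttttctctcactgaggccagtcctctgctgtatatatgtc
Magi2, enriched NeuN-positive, gained, chr5:19364501-19364700: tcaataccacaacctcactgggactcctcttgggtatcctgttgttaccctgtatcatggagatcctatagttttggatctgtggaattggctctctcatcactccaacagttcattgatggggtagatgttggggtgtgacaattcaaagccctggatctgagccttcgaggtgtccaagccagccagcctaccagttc
Magi2, enriched NeuN-negative, lost, chr5:20098581-20098820: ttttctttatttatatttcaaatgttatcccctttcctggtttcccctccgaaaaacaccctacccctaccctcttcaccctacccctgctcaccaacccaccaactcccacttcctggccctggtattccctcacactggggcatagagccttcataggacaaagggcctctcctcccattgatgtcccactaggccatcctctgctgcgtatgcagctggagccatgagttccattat

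Dlgap1 had 2 lost regions in intron 2, 1 lost region in intron 9 and a pair of gained regions in intron 6, the closest pair from different H3.3 tables in any of the 10 genes.
Dlgap1, KCl 2 hr, lost, chr17:70442801-70443000: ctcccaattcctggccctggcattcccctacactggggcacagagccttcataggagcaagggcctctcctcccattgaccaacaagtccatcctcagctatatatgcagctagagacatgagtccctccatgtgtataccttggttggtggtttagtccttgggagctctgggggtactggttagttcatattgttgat
Dlgap1, KCl 2 hr, lost, chr17:70655061-70655260: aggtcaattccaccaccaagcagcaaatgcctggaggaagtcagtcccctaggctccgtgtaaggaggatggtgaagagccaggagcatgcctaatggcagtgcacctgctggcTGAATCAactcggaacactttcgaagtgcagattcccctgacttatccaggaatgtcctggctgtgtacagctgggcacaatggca
Dlgap1, enriched NeuN-negative, gained, chr17:70975001-70975240: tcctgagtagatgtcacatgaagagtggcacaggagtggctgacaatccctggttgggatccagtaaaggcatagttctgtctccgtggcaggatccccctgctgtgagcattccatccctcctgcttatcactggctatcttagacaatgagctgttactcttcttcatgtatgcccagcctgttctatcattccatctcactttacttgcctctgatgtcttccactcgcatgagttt
Dlgap1, KCl 2 hr, gained, chr17:70984541-70984760: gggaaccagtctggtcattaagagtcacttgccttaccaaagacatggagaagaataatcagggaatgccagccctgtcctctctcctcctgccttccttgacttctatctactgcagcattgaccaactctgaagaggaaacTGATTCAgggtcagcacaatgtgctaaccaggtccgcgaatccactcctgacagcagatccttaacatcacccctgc
Dlgap1, KCl 5 hr, lost, chr17:71114901-71115100: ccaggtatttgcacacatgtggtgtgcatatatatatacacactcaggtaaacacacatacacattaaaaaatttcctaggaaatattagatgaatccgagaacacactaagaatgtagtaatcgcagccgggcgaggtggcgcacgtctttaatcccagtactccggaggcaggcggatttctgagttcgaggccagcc

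TGANTCA stood in 3 of the 20 H3.3 regions of the scaffold genes, all 3 among those printed. These were the second lost and the gained 2 hr region of Dlgap1 and the Dlg2 region of NeuN-negative nuclei. All 3 had A or T in the middle, where the usual AP-1 site has C or G. Among all 4563 H3.3 regions of the same lengths, 200 to 280 bp, 6.62% held TGANTCA. The longer cyclic AMP response element TGACGTCA stood in none of the 20 and in 0.0657% of the regions of these lengths. A match of letters is a description of the DNA and says nothing of binding.

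H3.3 regions of the scaffold genes numbered 4 at 30 min, 4 at 2 hr and 5 at 5 hr of KCl, 2 in NeuN-positive and 5 in NeuN-negative nuclei. H3.1/2 gave none, but its table lists only 7 regions over all chromosomes, or 0.00264 per Mb. With so few, the lack of a scaffold region there is not read as a difference from H3.3. At 30 min, 1 H3.3 region was gained and 3 were lost, where 20.1% of all 457 listed regions were gained. At 2 hr it was again 1 gained and 3 lost, with 14.4% of all 689 regions gained. At 5 hr, 3 were gained and 2 lost, with 44.2% of all 667 gained. Enriched housing gave 1 gained and 1 lost region in NeuN-positive nuclei, where 71.8% of all 1642 regions were gained, and 2 gained and 3 lost in NeuN-negative nuclei, where 70.7% of all 1196 were. With so few regions per table, no difference from these shares was looked for.

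An authors' adjusted p of 0.05 or less was reached by all 4 regions at 30 min, all 4 at 2 hr, both in NeuN-positive and all 5 in NeuN-negative nuclei. None of the 5 at 5 hr reached it. The same threshold was met by 98.5%, 99.6%, 97.8% and 99.8% of all regions in the first 4 of these tables and by 3.0% at 5 hr, so the count follows the tables and is no property of these genes. The KCl or enriched libraries did not overlap their controls in any of the 20 regions, as in 100.0% of all 4651 H3.3 regions, where the listing itself asks for a change of about 3-fold.

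**Figure D1:**
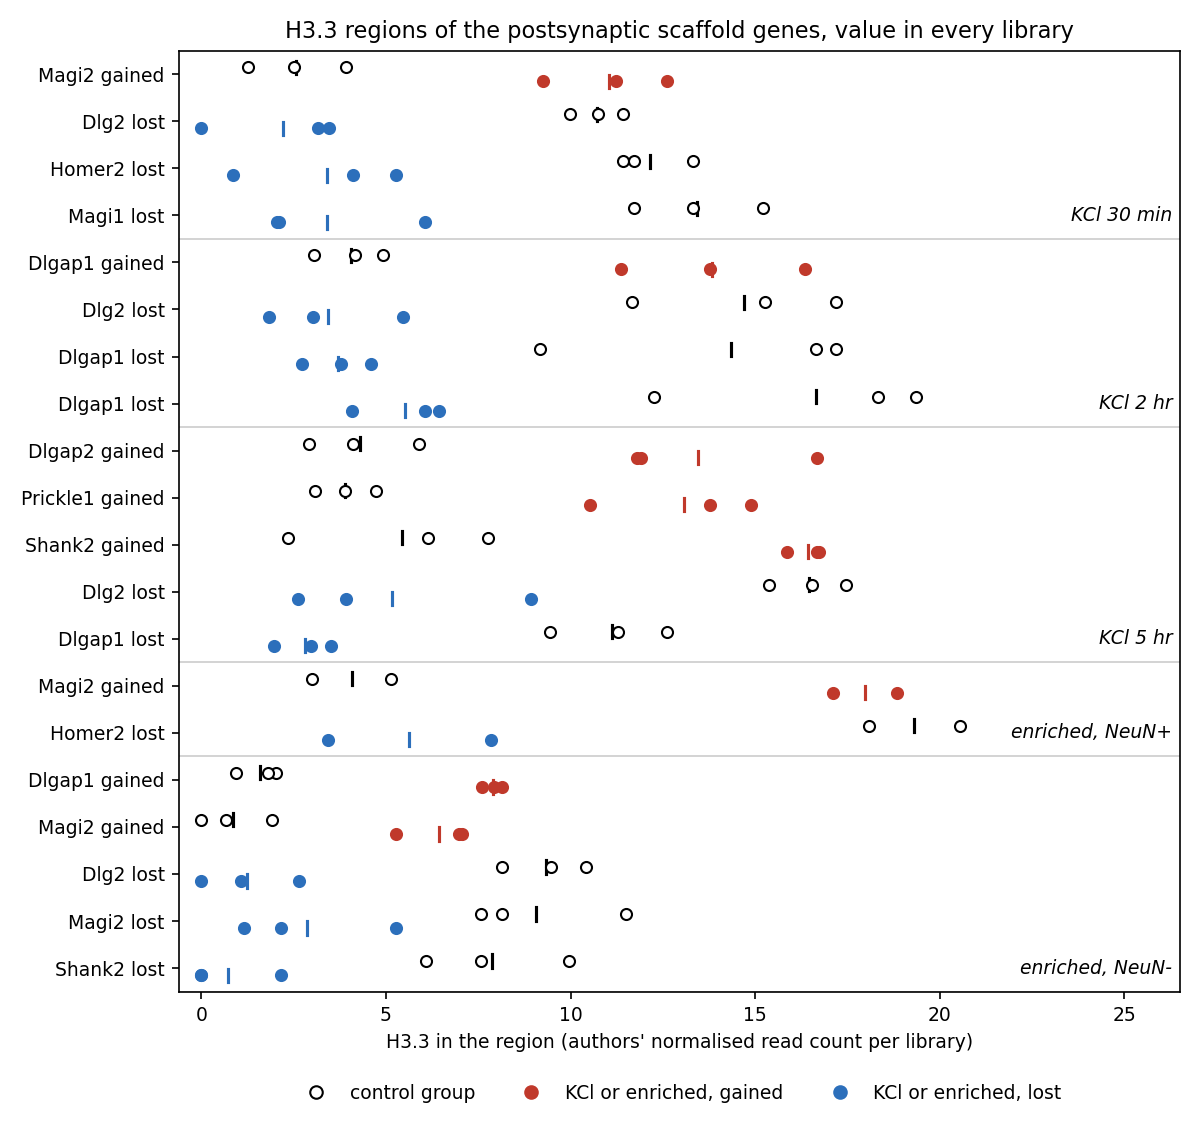
Authors' normalised read count of every library (x axis) in the 20 H3.3 regions of the scaffold genes (rows, grouped by table); open points are control or normally housed libraries, filled points KCl or enriched libraries, and short bars the group means. Filled and open points do not overlap in any row, and the group means on the high side run from 6.44 to 19.3.

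Dlg2, also called PSD-93, is a membrane-associated guanylate kinase that binds NMDA receptors and potassium channels. It is the longest of the 10 genes, 1950 kb on chromosome 7 (97650473 to 99595513). H3.3 fell there in 3 tables, and the table for 5 hr of KCl listed a loss that did not pass.

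At 30 min the control libraries held 11.4, 9.99 and 10.7 normalised reads in the Dlg2 region and the KCl libraries 3.46, 3.15 and 0. All 3 KCl libraries were low, and 1 of them had no read. The means were 10.7 ± 0.710 (SD, n = 3) in control and 2.20 ± 1.91 (SD, n = 3) in KCl, from 32 and 7 reads in all. In the authors' deposited table the log2 fold change is -2.28, adjusted p = 0.0257. This region lay in intron 10 of 25 of the longest transcript, 74.7% of the way along the gene.

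At 2 hr the Dlg2 region, in intron 6, held 15.3, 11.7 and 17.2 in control and 1.84, 3.03 and 5.45 in KCl, which is 14.7 ± 2.80 (SD, n = 3) against 3.44 ± 1.84 (SD, n = 3). Each KCl library stayed under the lowest control by a wide margin. The authors' deposited table has -2.10 as log2 fold change and 0.0107 as adjusted p, and an infinite ratio to input for KCl, where input was 0.

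At 5 hr the third region, in intron 16, held 16.53, 15.4 and 17.5 in control and 3.93, 2.63 and 8.93 in KCl. The KCl library at 8.93 stood between the others and the controls, and without KCl value 1 or 2 the loss is under 3-fold (log2 fold change -1.51 or -1.36), while without KCl value 3 it is -2.33. The authors' deposited table gives -1.67 with an adjusted p of 0.0925 for it.

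In NeuN-negative nuclei of enriched mice the last Dlg2 region, also in intron 16, held 10.4, 9.46 and 8.14 in normally housed and 0, 2.64 and 1.08 in enriched libraries. The 3 enriched libraries had 3 reads together, against 34. The means were 9.34 ± 1.15 (SD, n = 3) and 1.24 ± 1.33 (SD, n = 3). The log2 fold change is -2.91 (adjusted p = 0.00297) in the authors' deposited table. Computed without enriched value 2, it is -4.11 at Dlg2.

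None of the 4 Dlg2 regions overlapped another. They stood between 67.1% and 90.9% of the gene, with gaps of 83.4 kb for the nearest pair and 463 kb for the farthest. Among the 2281 genes named in any of the 5 H3.3 tables, 7 were named in 4 and 1 was named in all 5. Dlg2 was the one gene of these 8 whose regions were all lost. Dab1, Fgfr2, Gpc5, Pcdh15, Ptprd, Schip1 and Ptprn2 had both directions. Of all listed regions, 79.9% were lost at 30 min, 85.6% at 2 hr, 55.8% at 5 hr and 29.3% in NeuN-negative nuclei. Whether 1 all-lost gene goes beyond these shares was not tested. The median length was 1550 kb for genes with 4 tables and 58.1 kb for genes with a single one, so that the number of tables moved with length.

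CATCH-IT gave Dlg2 33 regions, 16 gained and 17 lost, close to an even split. The gained region with the smallest adjusted p, in intron 16, held 9.35, 6.39 and 16.3 in KCl and 0 in each control. The lost one, in intron 23, held 2.21, 11.1 and 14.2 in control and 0 in each KCl library. A gained region just before an annotated Dlg2 start was the one CATCH-IT region of the 10 genes within 1000 bp of a start, and its values of 4.01, 17.0 and 2.72 came from 3, 32 and 1 reads. A single KCl library therefore supplied nearly all reads of that region. A lost CATCH-IT region lay 2.88 kb from the 5 hr H3.3 region of Dlg2, with control values of 1.89, 8.32 and 14.2.

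Dlgap1 and Dlgap2 encode the guanylate-kinase-associated proteins, the adaptors between Dlg and Shank. Dlgap1, 852 kb on chromosome 17 (70318413 to 71170753), had H3.3 regions in 3 tables and in both directions, while Dlgap2, 752 kb on chromosome 8 (14095865 to 14847684), had 1.

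At 2 hr of KCl, H3.3 fell at 2 places in intron 2 of Dlgap1 and rose at 1 place in intron 6. The first lost region held 9.16, 16.7 and 17.2 in control and 4.59, 3.79 and 2.72 in KCl, and the second 19.4, 18.3 and 12.3 against 6.43, 6.06 and 4.09. The KCl libraries lay close together in both, and the controls were more spread. The means of the second were 16.7 ± 3.83 (SD, n = 3) and 5.53 ± 1.26 (SD, n = 3). In the authors' deposited table the first had a log2 fold change of -1.95 (adjusted p = 0.0227) and the second -1.59 (adjusted p = 0.0221).

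The gained 2 hr region of Dlgap1 held 3.05, 4.17 and 4.91 in control and 13.8, 11.4 and 16.3 in KCl, or 4.04 ± 0.936 (SD, n = 3) against 13.8 ± 2.49 (SD, n = 3). Here all KCl libraries were high, from 42 reads against 12. The authors' deposited table lists a log2 fold change of 1.77 (adjusted p = 0.0210), and a signal over input of 1.81 in KCl and 0.36 in control. Direction therefore changed along the gene at one time point: the lost regions stood at 14.6% and 39.5% of its length and the gained one at 78.2%.

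In NeuN-negative nuclei H3.3 also rose in intron 6 of Dlgap1, 9.3 kb from the 2 hr region. The normally housed libraries held 0.950, 2.03 and 1.81 and the enriched libraries 8.14, 7.93 and 7.59. The enriched values were nearly equal, 7.89 ± 0.278 (SD, n = 3), although they came from 7, 3 and 14 reads, against 1.60 ± 0.571 (SD, n = 3) in normal housing. In the authors' deposited table the log2 fold change is 2.31, adjusted p = 0.00776. This pair of tables shares neither libraries nor tissue, and the regions do not overlap.

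At 5 hr of KCl a region in intron 9 of Dlgap1 was listed as lost, with 9.44, 11.3 and 12.6 in control and 1.97, 3.51 and 2.98 in KCl, 238 bp from an exon. It was the H3.3 region nearest to an exon in the 10 genes. The authors' deposited table gives -1.98 with an adjusted p of 0.110, so the loss did not pass. Dlgap2 had a region listed as gained in intron 9 of 15 at the same time, with 5.90, 4.10 and 2.91 in control and 11.8, 16.7 and 11.9 in KCl, a log2 fold change of 1.65 (adjusted p = 0.105) in the authors' deposited table.

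CATCH-IT regions of Dlgap1 were 6 gained and 1 lost, and those of Dlgap2 12 gained and 8 lost. For Dlgap2 the gained region with the smallest adjusted p held 8.02, 6.39 and 5.44 in KCl and 0 in each control. It lay in intron 1 at 0.812% of the gene. These were the most even normalised values among the regions chosen this way, but they came from 6, 12 and 2 reads. The lost region of Dlgap2 held 1.89, 12.5 and 14.2 in control. For Dlgap1 the gained region held 9.35, 3.73 and 16.3 in KCl, and the lost region 0.950, 16.6 and 1.18 in control, with most of its reads in 1 library.

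Magi1 and Magi2 are large scaffolds with an inverted order of guanylate kinase and PDZ domains; Magi2, also named S-SCAM, binds NMDA receptor complexes and neuroligins, and Magi1 is better known from epithelial junctions. Magi2 is 1480 kb long, on chromosome 5 (18732864 to 20210616), and H3.3 rose there in 3 tables and fell in 1.

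At 30 min the Magi2 region in intron 1 held 1.27, 2.50 and 3.91 in control and 11.2, 12.6 and 9.26 in KCl. Every KCl library was well above the highest control. The means were 2.56 ± 1.32 (SD, n = 3) and 11.04 ± 1.69 (SD, n = 3), from 8 and 34 reads. The log2 fold change is 2.11 (adjusted p = 0.0278) in the authors' deposited table. It was the one scaffold region gained at 30 min.

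In NeuN-positive nuclei a region in intron 2 of Magi2 held 3.01 and 5.14 in normal housing and 18.8 and 17.1 after enrichment, which is 4.08 ± 1.51 (SD, n = 2) against 17.98 ± 1.22 (SD, n = 2). Both enriched libraries were high, with 44 reads against 7. The authors' deposited table has 2.14 as log2 fold change and 0.0368 as adjusted p.

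In NeuN-negative nuclei another region in intron 2 of Magi2 held 1.90, 0.680 and 0 in normal housing and 6.98, 5.28 and 7.05 after enrichment. The groups were apart, but the enriched values came from 6, 2 and 13 reads. The authors' deposited table lists a log2 fold change of 2.91 (adjusted p = 0.00556). A region near the other end of Magi2, in intron 16 of 22, fell in the same nuclei, from 7.58, 11.5 and 8.14 to 1.16, 5.28 and 2.17, at a log2 fold change of -1.66 (adjusted p = 0.0104) in the authors' deposited table. The signal over input of this lost region stayed above 1 in both groups, 10.21 in normal housing and 2.79 after enrichment in the authors' deposited table, and its sequence has 18 near-identical copies elsewhere. Computed from the packed values, the loss at Magi2 is under 3-fold without enriched value 1 (log2 fold change -1.28), enriched value 3 (-1.49) or control value 2 (-1.45), and -2.45 without enriched value 2. The gain at Magi2 is 4.24 on that scale without control value 1.

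The 3 gained regions of Magi2 stood at 30.1%, 31.9% and 42.7% of the gene and the lost one at 92.4%. The 30 min region in cultured cortical neurons and the NeuN-negative region of the hippocampus were 25.8 kb apart, and neither overlapped the NeuN-positive region 161 kb further on. One more region inside Magi2, in intron 3, fell at 30 min of KCl but is named in the authors' deposited table for a U6 RNA gene within the intron and so is not counted. It held 21.6, 12.5 and 11.7 in control and 3.46, 5.26 and 2.06 in KCl, at a log2 fold change of -2.09 (adjusted p = 0.0266) in the authors' deposited table. With it, Magi2 had a gain and a loss at 30 min.

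Magi1, 608 kb on the minus strand of chromosome 6 (93625449 to 94233316), had 1 H3.3 region, which fell at 30 min. It held 15.2, 13.3 and 11.7 in control and 6.05, 2.10 and 2.06 in KCl, or 13.4 ± 1.75 (SD, n = 3) against 3.40 ± 2.29 (SD, n = 3). In the authors' deposited table the log2 fold change is -1.98, adjusted p = 0.0248, and computed without KCl value 1 it is -2.69 at Magi1. The region lay in intron 1 of 21, with a GC content of 34.1%, the lowest of the 20.

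CATCH-IT regions of Magi2 were 14 gained and 8 lost, and those of Magi1 10 gained and 8 lost. The CATCH-IT region with the largest mean among the 116 was in intron 2 of Magi2, with 12.0, 6.39 and 35.3 in KCl from 9, 12 and 13 reads, and 0 in each control. It lay 1.82 kb from the H3.3 region gained in NeuN-negative nuclei. The gained Magi2 region with the smallest adjusted p, in intron 10, held 8.02, 3.20 and 21.7 in KCl, and the lost one, in intron 1, held 3.16, 15.2 and 14.2 in control. For Magi1 the gained region with the smallest adjusted p held 8.02, 6.39 and 21.7 in KCl, and the lost one 3.16, 8.32 and 14.2 in control. One gained Magi1 region touched a coding exon, at 76.9% of the gene, with 9.35, 1.07 and 8.15 in KCl.

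Shank2 and Shank3 are the master scaffolds that tie the Dlgap layer to Homer and to actin regulators. Shank2, 423 kb on chromosome 7 (151187833 to 151610399), had 2 H3.3 regions of opposite direction, and Shank3, 60.6 kb on chromosome 15 (89330054 to 89390692) and the shortest of the 10 genes, had none.

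At 5 hr of KCl the Shank2 region in intron 16 of 22 held 2.36, 6.15 and 7.76 in control and 16.7, 16.7 and 15.9 in KCl. The KCl libraries were nearly equal, 16.4 ± 0.480 (SD, n = 3), and the controls more spread, 5.42 ± 2.77 (SD, n = 3). The authors' deposited table has 1.60 as log2 fold change and 0.103 as adjusted p. In NeuN-negative nuclei a Shank2 region in intron 14, 77.0 kb away, fell from 7.58, 6.08 and 9.95 in normal housing to 0, 0 and 2.17 after enrichment. A single enriched library held all 4 reads, against 28 reads in the 3 controls, and the log2 fold change is -3.44 (adjusted p = 0.00776) in the authors' deposited table. One more region inside Shank2, in intron 16, rose in these nuclei but is named in the authors' deposited table for the gene Gm14372. It held 1.90, 0.680 and 0 in normal housing and 5.82, 7.93 and 5.42 after enrichment, at a log2 fold change of 2.90 (adjusted p = 0.00776) in the authors' deposited table.

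CATCH-IT regions of Shank2 and Shank3 were all gained, 4 and 2. The gained Shank2 region with the smallest adjusted p held 10.7, 3.73 and 10.9 in KCl and 0 in each control, 14.5 kb from the 5 hr H3.3 region, and its sequence has 4677 near-identical copies in the genome. In Shank3 1 region touched a coding exon, at 78.9% of the gene, with 8.02, 3.20 and 16.3 in KCl from 6 reads in each library. The other Shank3 region, in intron 8, held 13.4, 0.530 and 5.44 in KCl. Another 4 gained and 4 lost CATCH-IT regions lay inside Shank2 without being named for it, so the one-sided count of Shank2 depends on the gene assignment.

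Homer1 and Homer2 bind metabotropic glutamate receptors and Shank; the short form of Homer1 is an immediate-early gene product. Homer1, 101 kb on chromosome 13 (94073712 to 94174917), had no H3.3 region in any table. Homer2, 106 kb on the minus strand of chromosome 7 (88745367 to 88851811), had 2, and H3.3 fell at both.

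At 30 min the Homer2 region in intron 2 of 8 held 11.4, 13.3 and 11.7 in control and 0.860, 5.26 and 4.12 in KCl. Controls were close together, and all KCl libraries were low, 12.2 ± 1.03 (SD, n = 3) against 3.41 ± 2.28 (SD, n = 3). The authors' deposited table lists a log2 fold change of -1.83 (adjusted p = 0.0278). In NeuN-positive nuclei a region in intron 1 of Homer2, 25.1 kb away, held 18.1 and 20.6 in normal housing and 7.85 and 3.42 after enrichment. In the authors' deposited table the log2 fold change is -1.78, adjusted p = 0.0395. Computed from the packed values without enriched value 2, the log2 fold change at Homer2 is -1.30, under 3-fold, which leaves no lost scaffold region in NeuN-positive nuclei. Without enriched value 1 it is -2.50.

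CATCH-IT regions of Homer1 were 2 gained and 2 lost, and those of Homer2 3 gained and 1 lost. In Homer1, a gained region in intron 5 held 20.0, 3.73 and 13.6 in KCl, and one in intron 1 held 17.4, 0.530 and 13.6. The lost regions of Homer1, in introns 2 and 7, held 6.63, 4.16 and 14.2 and then 0.630, 16.6 and 1.18 in control. Gains and losses alternated along Homer1. The gained Homer2 region with the smallest adjusted p held 16.0, 1.60 and 10.9 in KCl and the lost one 3.79, 18.02 and 1.18 in control.

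Prickle1 encodes a cytoplasmic planar cell polarity protein. It is 96.8 kb long, on the minus strand of chromosome 15 (93329545 to 93426322), and had 1 H3.3 region, listed as gained at 5 hr in intron 1 of 7. The region held 4.72, 3.08 and 3.88 in control and 13.8, 10.5 and 14.9 in KCl, at a log2 fold change of 1.75 (adjusted p = 0.110) in the authors' deposited table. The groups were apart but the gain did not pass. Both CATCH-IT regions of Prickle1 were lost, and the one with the smaller adjusted p held 0.950, 2.77 and 14.2 in control.

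**Figure D2:**
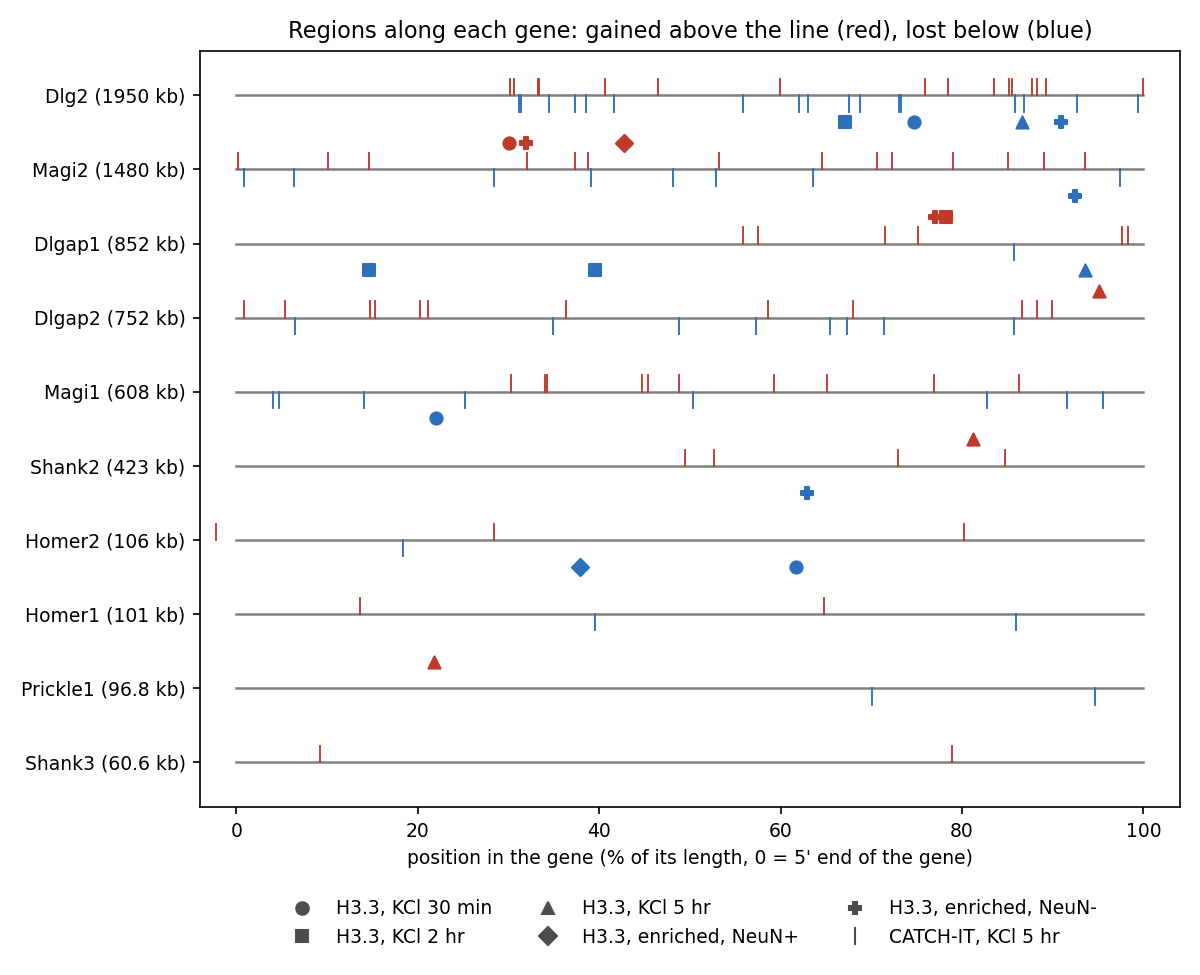
Position of all 136 regions along the 10 genes (x axis, percent of gene length from the 5' end; rows, longest gene on top); gained regions are red above the line and lost regions blue below it, short ticks are CATCH-IT regions, and larger symbols are H3.3 regions by table. The 4 Dlg2 H3.3 regions are all below the line, between 67.1% and 90.9%, and the 3 gained Magi2 regions sit between 30.1% and 42.7%.

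All 20 H3.3 regions lay in introns, 5786 to 364662 bp from the nearest annotated start of their gene. Median GC content was 50.2% for gained and 50.2% for lost regions. Relative to input, the 19 regions with a finite ratio in the authors' deposited tables moved the same way as the count, but that ratio contains the same count that led to the listing. Of the 20 pairs of H3.3 regions that shared a gene but not a table, none overlapped and 13 had the same direction, a count in which the 6 Dlg2 pairs are not independent of each other. Over the summed spans of the 10 genes, 6.42 Mb, H3.3 regions stood at 0.779, 0.623 and 0.779 per Mb at 30 min, 2 hr and 5 hr, against 0.172, 0.260 and 0.251 per Mb over all chromosomes. In NeuN-positive nuclei the figures were 0.311 and 0.618 per Mb, and in NeuN-negative nuclei 0.934 and 0.450, so the density in the scaffold genes was above the genome's in all of these tables but that of NeuN-positive nuclei. These rest on 2 to 6 regions a table and are given as a description. The genes were chosen with earlier results of these data known, and the figure over all chromosomes is not that of other long genes. A higher density is therefore not read as a property of the scaffold genes.

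In CATCH-IT, 69 of the 116 scaffold regions were gained and 47 lost, or 59.5% gained, where 57.3% of all 53020 regions were. All 116 passed an adjusted p of 0.05 in the authors' deposited table, as did 100.0% of all regions. Introns held 112 regions, coding exons 2 and an untranslated part 1, and 1 stood before the start of Homer2. Both regions in coding exons were gained. Inside the gene spans CATCH-IT regions stood at 22.1 per Mb, against 20.0 per Mb over all chromosomes, and by gene from 14.9 per Mb in Magi2 to 39.5 per Mb in Homer1. TGANTCA stood in 13 of the 116, or 11.2%, and in 10.8% of all CATCH-IT regions, both strands searched.

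**Figure D3:**
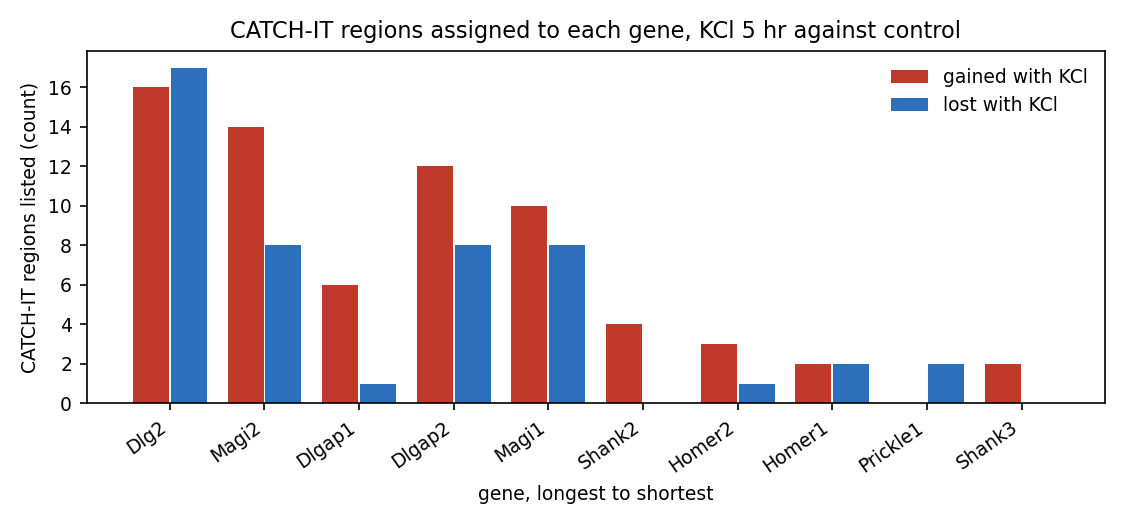
Number of CATCH-IT regions listed as gained (red) or lost (blue) after 5 hr of KCl for each of the 10 genes, longest gene on the left; bars start at 0. Dlg2 had 16 gained and 17 lost, Magi2 14 and 8, and Prickle1 was the one gene with no gained region.

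The CATCH-IT values were nearly all-or-none. Control was 0 in all 3 libraries at 67 of the 69 gained regions, or 97.1%, and KCl was 0 in all 3 at the 47 lost regions. Over all CATCH-IT regions these shares were 96.5% and 99.4%, so the pattern is that of the whole table. The high group had a read in all 3 libraries at each of the 116, as at 53000 of all 53020 regions. That was often a single read: the third KCl library held exactly 1 at 37.7% of the gained scaffold regions and 35.9% of all gained regions. Summed over the 3 libraries, gained regions had a median of 16 reads and lost regions 20, with extremes of 6 and 36. One library supplied most of the summed value in 83.6% of the scaffold regions and in 78.3% of all regions. The third control value was the highest of its group at 78.7% of the lost scaffold regions and 72.8% of all lost regions, and the first control value at none of the scaffold regions. That first library is the one in which 1 read is worth least.

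Read numbers in CATCH-IT also piled up at 6 and 12. Of the 47 lost scaffold regions with reads in the third control library, 37 held exactly 12 reads, 78.7%, and none held 11 or 13. Over all regions with reads in that library, 66.6% held 12 reads, 0.165% held 11 and 2.88% held 13. The second KCl library held exactly 12 reads at 23 of 69 gained scaffold regions, or 33.3%, and at 23.1% of all regions with reads in it. At least 1 library of the high group had 6 or 12 reads in 88 of the 116 regions, 75.9%, and in 73.5% of all regions. The name of the authors' deposited table refers to a duplicate setting of 6. Its part in the gains and losses was not tested.

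**Figure D4:**
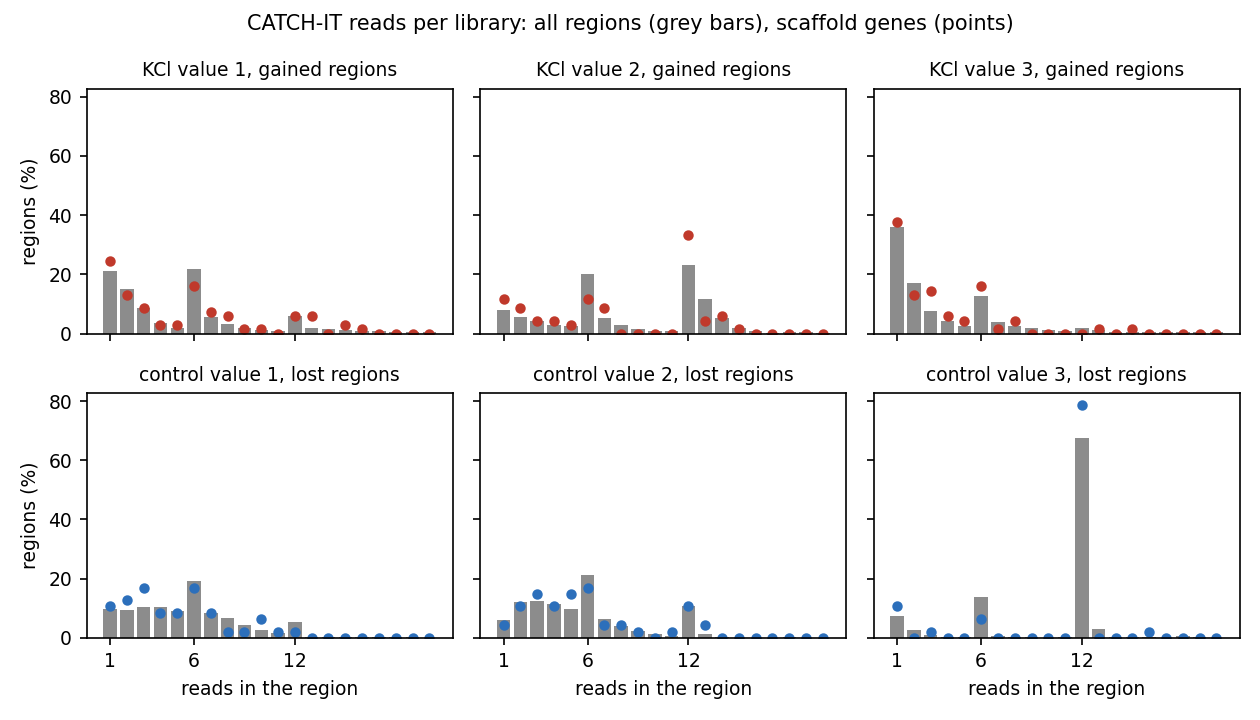
Share of regions (y axis, percent) with a given number of reads (x axis) in each CATCH-IT library; the top row shows KCl libraries in gained regions and the bottom row control libraries in lost regions, grey bars are all regions and coloured points the scaffold genes. The grey bars rise at 6 and 12 reads, most of all in the third control library, where 78.7% of the lost scaffold regions stand at 12. The points do not rise at 12 in every library: in the third KCl library 0.0% of the gained scaffold regions stand there. In that library 1 read is the most common number, at 37.7% of the gained scaffold regions and 35.9% of all gained regions.

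No H3.3 region overlapped a CATCH-IT region named for the gene or lying inside it. The nearest of these was a median of 21.4 kb away, 2 of 20 had one within 5000 bp, and the nearest one had the same direction in 9 of 20. CATCH-IT regions stood at 22.1 per Mb in these genes, and whether the distances differ from what that density gives was not tested. Copies of the regions elsewhere in mm9, at 90% identity or more over 80% of the length or more, were found for 3 of the 20 H3.3 regions: 2 for the earlier lost 2 hr region of Dlgap1, 4 for the 5 hr region of Dlgap2 and 18 for the lost Magi2 region of NeuN-negative nuclei. Of the 116 CATCH-IT regions, 5 had copies, 4 of them over 1000, including the Shank2 region with the smallest adjusted p, which had 4677. Reads of these regions could come from other places, and their part in the values was not tested. Repeats over a smaller part of a region were not searched for, so the other regions were not shown to be free of them.

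For the wider postsynaptic density, a list of other genes of the density and its signalling partners was read the same way. The list had 50 names, 48 of them in the gene annotation. It had 2 H3.3 regions at 30 min, 1 at 2 hr, 6 at 5 hr, 2 in NeuN-positive and 5 in NeuN-negative nuclei, so single genes were touched here too. H3.3 rose at 30 min at Magi3, the third Magi scaffold, from 4.20 ± 1.86 to 15.0 ± 1.74 (SD, n = 3), and fell at Cyfip2, a subunit of the WAVE actin regulator, from 13.8 ± 1.91 to 4.11 ± 3.25 (SD, n = 3). At 2 hr the gain was at Iqsec1, which activates the small GTPase Arf, from 1.24 ± 1.25 to 10.3 ± 0.541 (SD, n = 3). At 5 hr the list had 3 gained regions, at Sipa1l3, Mpp3 and Camk2a, and 3 lost, at Tnik and at 2 places in Prickle2, none of which passed.

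After enrichment, H3.3 rose in NeuN-positive nuclei at Cyfip2 and fell at Cit, at log2 fold changes of 2.07 (adjusted p = 0.0395) and -1.73 (adjusted p = 0.0418) in the authors' deposited table. In NeuN-negative nuclei it rose at Grip1, a scaffold of AMPA receptors, at Lrrc7, also called densin, at Prickle2 and at Sipa1l3, and fell at another Sipa1l3 region. The Grip1 region went from 0.920 ± 0.905 to 6.64 ± 1.43 (SD, n = 3). In CATCH-IT 38 of the 48 genes found in the annotation had 151 regions, 102 gained and 49 lost. That is 67.5% gained, beside 59.5% for the 10 scaffold genes and 57.3% for all regions. The list was chosen with earlier results of these data known and the difference was not tested. The higher share is therefore not read as a property of these genes.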

How the data were processed

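The data were 7 tables of regions that the authors called as different between treated and control libraries of mouse chromatin. Bowtie 0.12.7, bedtools 2.16.2 and mm9 are named in the submitters' processing notes; no source used here names the region caller. Per the file headers, the authors deposited normalised read counts per library, packed in one cell without library names, and the group mean of these counts as a coverage signal. They also deposited the ratio of each mean to input, a log2 fold change and a p-value with its adjusted form, used as they stood. The authors normalised each table by itself, so no level was set against one of another table.

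Regions were assigned to the 10 genes by the authors' gene name and placed in introns and exons of the GENCODE vM1 annotation of the same build, with Python 3.11.15, pandas 2.3.3 and pysam 0.24.0. Means and SD were computed from the packed values. The worth of 1 read was recovered in 34 libraries, where 100.0% of low values were whole reads within 0.1; the method was tested on simulated data. No count test was run, because these libraries had already been used to choose the regions, and calls use the authors' adjusted p of 0.05. The 30 min control had 4 labelled libraries, 1 of them a repeat of the first, and 3 values in the table. Copies in the genome were searched with blastn 2.17.0.

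The members, the list of 50 other gene names and the tests were chosen with earlier results of these data known. All 10 genes are named; every H3.3 region is described, and for CATCH-IT the gained and lost region of smallest adjusted p per gene (ties by larger difference), any region within 1000 bp of the authors' start, and the nearest within 5000 bp of an H3.3 region. Every gene of the list with an H3.3 region is named. Further CATCH-IT regions, and regions inside a gene but named for another, were chosen after their values were seen. Alternatives tried were an adjusted p of 0.05 and of 0.01, non-overlapping groups, regions within the gene span, agreement with input, a 2-fold change with a pseudocount of 1 and leaving out each library.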

Additional observations from a re-analysis of the deposited data

How the results depend on the processing

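Counts are small, from 1 to 3 regions per direction in an H3.3 table. At an adjusted p of 0.01, 0 gained and 0 lost regions were left at 30 min, 2 hr and 5 hr of KCl. The same held in NeuN-positive nuclei, while 2 gained and 2 lost regions were left in NeuN-negative nuclei. No share of all regions at 0.01 stands beside these counts, so they are not read as a property of these genes. At 0.05, 0 and 0 were left at 5 hr, where 3.0% of all regions passed. Asking for a ratio to input in the same direction left 21 gained and 12 lost CATCH-IT regions of 69 and 47. Of these 33, input was above 0 in both groups at 9, and the other 24 moved the same way only through a ratio made infinite by input of 0 in one group. No other region of the 116 had input above 0 in both groups. Input of the high group was 0 at 89 of the 116, 76.7%, and at 72.4% of all regions. Where both ratios were infinite, no direction could be read. Leaving out each library in turn gave 2 to 3 lost regions at 30 min, 2 to 3 at 2 hr, 2 to 3 gained and 1 to 2 lost at 5 hr, 2 to 3 lost in NeuN-negative nuclei and 0 to 1 lost in NeuN-positive nuclei. Log2 fold changes of the 20 H3.3 regions kept their sign in the 135 alternative values that could be computed. That outcome was fixed in advance, because the groups do not overlap at any of the 20 regions. The Shank2 region of NeuN-negative nuclei has no value without enriched value 3, which holds all its enriched reads. Leaving out 1 library took 7 of the 20 regions under 3-fold and moved the fold of 6 by over 1.5 times. Beside those named with the regions, these were Homer2 at 30 min without KCl value 1 (-1.37), Dlgap1 at 2 hr without KCl value 3 (-1.41), control value 1 (-1.47) or 2 (-1.52), and at 5 hr Dlgap2 without KCl value 2 (1.46) or control value 3 (1.43) and Shank2 without control value 1 (1.24). No paired analysis was possible because the packed values carry no replicate numbers. Depth limits every value: single H3.3 libraries held 0 to 24 reads in a region.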

Other observations

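CATCH-IT regions also lay inside the scaffold genes without being named for them. There were 27 such regions, 17 gained and 10 lost, all in 3 genes: Dlg2 had 5 gained and 2 lost, Dlgap1 8 gained and 4 lost, and Shank2 4 gained and 4 lost. Counted by position, Dlgap1, the Dlg to Shank adaptor, therefore held 19 CATCH-IT regions where the authors' gene names give 7, and Shank2 held 12 where they give 4.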
